A study of Homo sapiens with 6 samples.

Results

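The genes described here belong to the XBP1 and ATF6 branches of the unfolded protein response. The members are 10 genes chosen by symbol: XBP1, ERN1, ATF6, CRELD2, SDF2L1, HERPUD1, EDEM1, MANF, SEL1L and PDIA4. Each was read from the probe sets that the platform annotation pairs with exactly 1 gene symbol, and each had 1 such probe set, so the members are 10 of 19309 probe sets tested (18376 genes). The study used PC3, a human prostate cancer line that grows without androgen, and 6 whole-transcript arrays. Of these, 3 hold RNA of cells with ectopic miR-34c, a microRNA whose family is induced by p53, and 3 that of control cells with a scramble mimic. The labels give no other treatment, no dose and no time for either group. The sample labels and the series title speak of miR-34c but the design text of miR-205, and the groups follow the sample labels. Nothing in the labels tells whether replicates were grown separately, so p-values cover only the spread between these arrays, which may be technical.

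The unfolded protein response is the set of signals by which a cell adjusts its secretory machinery when unfolded proteins gather in the endoplasmic reticulum (ER). IRE1, encoded by ERN1, is a kinase and nuclease of the ER membrane that removes a short intron from XBP1 mRNA, and the spliced mRNA encodes the active transcription factor XBP1s. ATF6 is held in the ER membrane until it moves to the Golgi, where proteases release its transcription factor domain, and XBP1 is one of its target genes. Together XBP1s and ATF6 induce ER chaperones, foldases and the machinery that returns misfolded proteins to the cytosol for degradation (ERAD). XBP1 has been described as a target of miR-34c, but no target site was examined here. An array value covers a whole probe set, so spliced and unspliced XBP1 mRNA cannot be told apart, nor can cleaved and full-length ATF6 protein be seen.

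XBP1s and ATF6 act on an element named ERSE, which is CCAAT and then CCACG with any 9 bases between them. Its CCAAT box is bound by NF-Y. A shorter form, ERSE-II, is ATTGG and then CCACG with any 1 base between them. The 250 bases before each annotated start site in RefSeq (GRCh38.p14) were searched for both on either strand, and all 10 members were matched, in 12 windows. An ERSE lay before XBP1 and CRELD2 and an ERSE-II before SDF2L1 and HERPUD1, so 4 of 10 members held 1 of them. Over all 27305 genes with a window, ERSE was found before 0.0916% and ERSE-II before 0.0659%. By window the shares were 0.074% and 0.0513% of 35116. The stretches below are shown because they carry the response element by which these genes are known, with the element in capitals and the strand of the gene read 5′ to 3′.

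XBP1 (chr22:28800578-28800646, minus strand, ERSE from 52 to 34 bases before the start): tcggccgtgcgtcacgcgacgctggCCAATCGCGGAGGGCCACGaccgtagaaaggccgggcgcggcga
CRELD2 (chr22:49918529-49918597, plus strand, ERSE read on the opposite strand, from 80 to 62 bases before the start): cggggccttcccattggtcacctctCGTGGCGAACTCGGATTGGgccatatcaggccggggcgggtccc
HERPUD1 (chr16:56932000-56932060, plus strand, ERSE-II from 117 to 107 bases before the start): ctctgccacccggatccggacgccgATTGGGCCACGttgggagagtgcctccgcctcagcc
SDF2L1 (chr22:21642089-21642149, plus strand, ERSE-II read on the opposite strand, from 188 to 178 bases before the start): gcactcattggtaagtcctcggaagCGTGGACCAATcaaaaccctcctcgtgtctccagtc

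XBP1 and PDIA4 have a second annotated window, in which neither element was found. The CCAAT box that forms part of both elements (CCAAT, overlapping them where they occur) was found before 9 of 10 members, all but ATF6, against 37.0% of all genes with a window. A match is a run of letters, and its absence says only that these letters are not in this window. No other element of XBP1s or ATF6 was searched. Of the 4 genes with an ERSE or ERSE-II, XBP1 fell and CRELD2 rose in the arrays, and SDF2L1 and HERPUD1 did not pass the test.

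With miR-34c, XBP1 mRNA fell while CRELD2, ATF6 and PDIA4 rose. XBP1 was at 0.767 of the scramble level, ATF6 and PDIA4 were each 1.24-fold higher, and CRELD2 was higher by 0.58 on the log2 scale. The other 6 members did not pass the test, but all had positive differences, between 0.065 for SDF2L1 and 0.22 for MANF on the log2 scale. Thus 3 of 10 members were called higher and 1 lower at a limma adjusted p under 0.05, where 7.56% of all probe sets tested were called higher and 7.92% lower (15.5% in all). The median log2 difference of the members was 0.18, against -0.035 for all probe sets tested. The groups did not overlap for 7 of 10 members, against 34.2% of all probe sets. The members were chosen with earlier results of these data known, so these shares describe the list and do not test it.

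**Figure D1:**
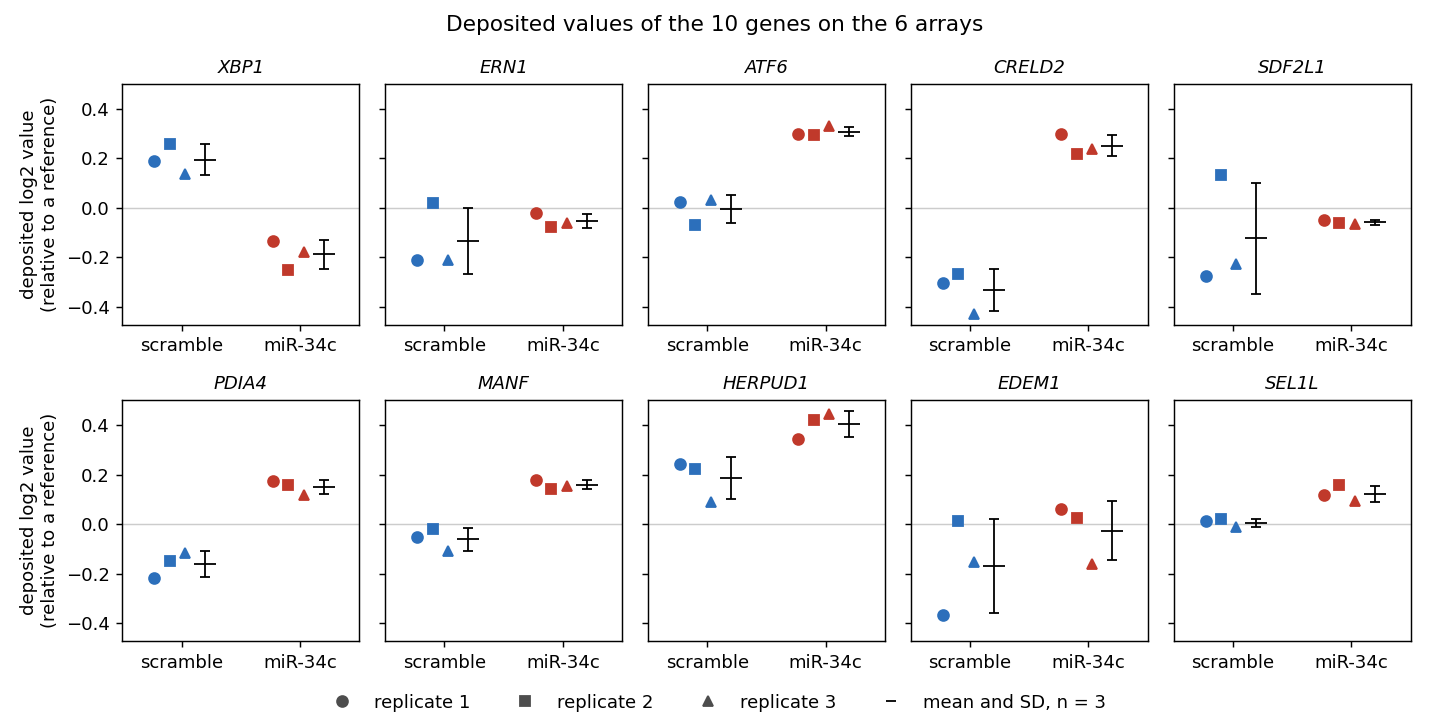
Deposited log2 value (vertical axis, relative to an unstated reference for each gene) of the 10 genes on the 3 scramble arrays (blue) and the 3 miR-34c arrays (red), with the mean and SD beside the points. The groups are apart for 7 genes, with XBP1 the one lower with miR-34c, and overlap for ERN1, SDF2L1 and EDEM1, where scramble replicate 2 lies above the other scramble arrays.

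The deposited values are log2 values from which a reference was subtracted for each probe set. A value of 0 therefore has no meaning as a level, levels of different genes cannot be compared, and only differences between arrays of one gene are read. The values of all probe sets ran from -2.86 to 3.77, with array medians between -0.030 and 0.062, the highest being that of scramble replicate 2. Across all probe sets the correlation between arrays was 0.77 to 0.88 within groups and 0.56 to 0.70 between groups. Whether PC3 cells express the epithelial markers at a high level could not be checked on centred values. Of 9 epithelial genes 6 rose: CLDN1, KRT7, DSP, EPCAM and, named after their values were seen, CDH1 and KRT8. Over all probe sets tested 7.56% were called higher. None of the 9 fell in limma or in any of the 15 other settings. At an unadjusted p under 0.05, 1 probe set was lower, that of CLDN4, named after its value was seen. For EPCAM 1 of 2 probe sets passed. KRT19 and KRT18, named after their values were seen, were not called. The log2 difference was 0.0098 for KRT19, and 0.40 and -0.19 for the 2 probe sets of KRT18. Of 7 leukocyte markers none passed in limma, none at an unadjusted p under 0.05, and the list median was -0.0025. The part of either list in the results was not tested.

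Among the sensors and transcription factors, XBP1 was the member that fell. Its values were -0.14, -0.25 and -0.18 on miR-34c replicates 1 to 3 and 0.19, 0.26 and 0.14 on scramble replicates 1 to 3. Every miR-34c array lay below every scramble array, with a gap of 0.27 between the nearest arrays of the groups. The log2 difference was -0.38 ± 0.077 (SE, n = 3 per group, 95% interval -0.56 to -0.21, limma adjusted p = 0.0104). Without miR-34c replicate 2, the lowest of the arrays, the difference was -0.35 and did not pass (adjusted p = 0.053).

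ATF6 moved the other way. Its values were 0.30, 0.29 and 0.33 with miR-34c and 0.022, -0.069 and 0.031 with scramble. The miR-34c arrays were close together (SD 0.019) and all lay above the scramble arrays (SD 0.055). The groups differed by 0.31 ± 0.073 (SE, 95% interval 0.15 to 0.48, limma adjusted p = 0.0201) on the log2 scale. It kept its size but not its call when miR-34c replicate 1 (0.32, adjusted p = 0.0507), 2 (0.32, adjusted p = 0.0688) or 3 (0.30, adjusted p = 0.0887) was left out.

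ERN1, the gene of the sensor IRE1, did not pass. Its values were -0.024, -0.078 and -0.062 with miR-34c and -0.21, 0.019 and -0.21 with scramble. Scramble replicate 2 lay above all miR-34c arrays and the other two scramble arrays below them, so the groups overlap. The log2 difference was 0.081 with a 95% interval of -0.12 to 0.28, and limma gave an adjusted p of 0.598. The difference was 0.16 without scramble replicate 2 and 0.042 without scramble replicate 1 or 3.

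The ER-resident proteins gave the largest difference of the set. CRELD2 encodes a resident ER protein with epidermal growth factor-like repeats that is induced by ER stress. Its values were 0.30, 0.22 and 0.24 with miR-34c and -0.30, -0.27 and -0.43 with scramble, so the nearest arrays of the groups were 0.48 apart. The log2 difference was 0.58 ± 0.079 (SE, 95% interval 0.40 to 0.76, limma adjusted p = 0.00153). CRELD2 passed in all 15 other settings, with differences between 0.53 and 0.62.

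PDIA4 encodes a protein disulfide isomerase, which forms and rearranges disulfide bonds in the ER. Its values were 0.17, 0.16 and 0.12 with miR-34c and -0.22, -0.15 and -0.12 with scramble. The groups were 0.23 apart and the log2 difference was 0.31 ± 0.073 (SE, 95% interval 0.15 to 0.48, limma adjusted p = 0.0204). The call was lost without miR-34c replicate 1, 2 or 3 or scramble replicate 1 (adjusted p = 0.0613, 0.078, 0.0677 and 0.0698), while the difference stayed between 0.28 and 0.33.

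MANF encodes a small secreted and ER-retained protein that protects cells under ER stress. Its values were 0.18, 0.14 and 0.15 with miR-34c and -0.053, -0.020 and -0.11 with scramble. All 3 miR-34c arrays were above all scramble arrays, but the log2 difference of 0.22 ± 0.072 (SE, 95% interval 0.057 to 0.38) did not pass over all probe sets (limma adjusted p = 0.0731). Centring the arrays on their medians gave 0.24 and a call (adjusted p = 0.0335), as did a further quantile normalization (0.25, adjusted p = 0.0263).

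SDF2L1 encodes a partner of the BiP chaperone cycle in the ER. Its values were -0.048, -0.060 and -0.068 with miR-34c and -0.28, 0.13 and -0.23 with scramble. The miR-34c arrays were within an SD of 0.0099, whereas the scramble arrays spread with an SD of 0.22, and replicate 2 was again the high one. The log2 difference was 0.065 (95% interval -0.18 to 0.31, limma adjusted p = 0.753), and the interval is wide enough to hold a difference as large as that of ATF6. The difference was 0.19 without scramble replicate 2 (adjusted p = 0.117) and -0.011 without scramble replicate 1 (adjusted p = 0.965).

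**Figure D2:**
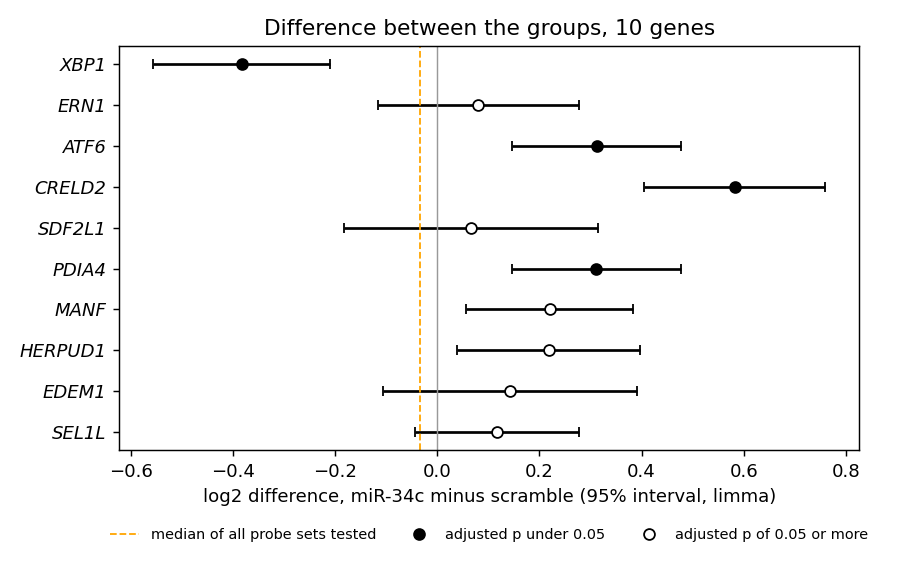
Log2 difference (horizontal axis, miR-34c minus scramble) of each of the 10 genes with its 95% interval from limma, filled where the adjusted p was under 0.05. XBP1 at -0.38 is the one gene left of 0, and CRELD2 at 0.58 is the farthest to the right, and the dashed line marks the median of all probe sets at -0.035.

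The members of the ERAD machinery did not pass. HERPUD1 encodes a ubiquitin-like ER membrane protein that organises the ERAD complex. Its values were 0.34, 0.42 and 0.45 with miR-34c and 0.24, 0.22 and 0.088 with scramble. The groups did not overlap, the log2 difference was 0.22 ± 0.079 (SE, 95% interval 0.039 to 0.40), and the limma adjusted p was 0.102.

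SEL1L encodes the adaptor that holds the ubiquitin ligase SYVN1 (HRD1) in the ERAD complex. Its values were 0.12, 0.16 and 0.092 with miR-34c and 0.012, 0.019 and -0.012 with scramble. The groups did not overlap, although the gap was only 0.073. Their means differed by 0.12 on the log2 scale (95% interval -0.044 to 0.28, limma adjusted p = 0.326).

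EDEM1 encodes a mannosidase-like protein that directs misfolded glycoproteins to degradation and is a classical target of XBP1s. Its values were 0.060, 0.023 and -0.16 with miR-34c and -0.37, 0.012 and -0.15 with scramble. The groups overlapped, with miR-34c replicate 3 below the other miR-34c arrays and scramble replicate 1 the lowest of all 6. Their log2 difference was 0.14 (95% interval -0.11 to 0.39, limma adjusted p = 0.442). It ran from 0.044 without scramble replicate 1 to 0.23 without scramble replicate 2.

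Scramble replicate 2 was the highest of the 6 arrays for XBP1, ERN1 and SDF2L1, and its member values lay on average 0.076 above the scramble mean. Over all probe sets tested that array lay 0.061 above the scramble mean. Its part in the member differences was measured by leaving it out, and the members were then called as with all 6 arrays, with 3 higher and 1 lower. The number of members called higher was 1 without miR-34c replicate 1, 2 or 3, and the number called lower was 0 without miR-34c replicate 2.

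**Figure D3:**
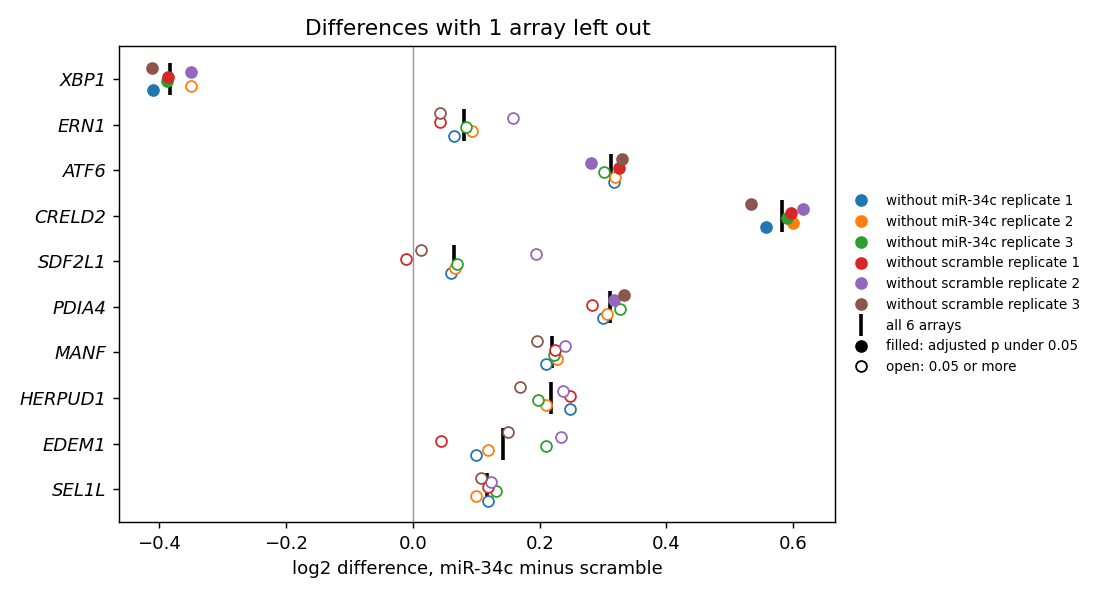
Log2 difference of each gene (horizontal axis, miR-34c minus scramble) with all 6 arrays (black bars) and with each array left out in turn (coloured points, filled where the limma adjusted p was under 0.05). The 6 points of CRELD2 are all filled and lie between 0.53 and 0.62, and XBP1 has 5 of 6 filled, between -0.41 and -0.35, while SDF2L1 is the one gene with points on both sides of 0.

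The other genes of the pathway were read from lists chosen by function. The ER stress sensors and transducers went both ways, with 3 of 14 measured genes risen and 1 fallen and a median log2 difference of -0.0028. Over all probe sets tested 7.56% were called higher and 7.92% lower, and the median was -0.035. CREB3L4, an ER-bound transcription factor related to ATF6, was 1.71-fold higher (log2 difference 0.77 ± 0.12, SE, limma adjusted p = 0.003). Its relative CREB3L1 rose by 0.33, and MBTPS2, the site-2 protease that cuts ATF6 within the membrane, rose by 0.38. CREB3L2 was the member that fell, to 0.788 of the scramble level. The calls of CREB3L1, MBTPS2 and CREB3L2 were lost in 3, 4 and 4 of 13 other settings, each time with 1 array left out. EIF2AK3, the gene of the sensor PERK, had a log2 difference of -0.0031 and did not pass (95% interval -0.21 to 0.20). The list had 1 rise without miR-34c replicate 2 or 3, and 0 falls when any of miR-34c replicate 2 or 3 or scramble replicate 1 or 2 was left out.

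Of 23 measured ER chaperones and foldases 2 rose and 1 fell, a share near the 15.5% called over all probe sets, and the median over 24 probe sets was 0.068. CDNF, the paralogue of MANF, was 1.47-fold higher (log2 difference 0.56 ± 0.098, SE, limma adjusted p = 0.00553), and SIL1, the nucleotide exchange factor of BiP, was 1.30-fold higher. The call of SIL1 was lost when miR-34c replicate 2 was left out (0.35, adjusted p = 0.0609). PDIA5, a protein disulfide isomerase like PDIA4, fell to 0.742 of the scramble level, opposite in direction to PDIA4. HSPA5, which encodes BiP, the central ER chaperone and a main ATF6 target, had a log2 difference of 0.05 with a 95% interval of -0.11 to 0.21. DNAJB9, a BiP co-chaperone induced by XBP1s, had a difference of -0.093 (95% interval -0.30 to 0.12), and neither passed. With 1 array left out HSPA5 ran from 0.027 (without scramble replicate 3) to 0.070, and DNAJB9 from -0.17 (without scramble replicate 3) to -0.015 (without scramble replicate 2).

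In ERAD 1 of 20 measured genes rose and 1 fell, where 15.5% of all probe sets were called in either direction. A negative difference was found for 16 of 21 probe sets (median -0.11), against 57.8% of all probe sets tested. SYVN1, the ubiquitin ligase that SEL1L holds, fell to 0.78 of the scramble level (log2 difference -0.36 ± 0.08, SE, limma adjusted p = 0.0159), while SEL1L itself had a positive difference and did not pass. The call of SYVN1 was lost when miR-34c replicate 2 or 3 or scramble replicate 1 was left out (adjusted p = 0.0664, 0.07 and 0.0519). OS9, a lectin that delivers glycoproteins to the SEL1L complex, rose 1.24-fold, a call lost with 7 of 13 other settings, the smallest adjusted p among those 7 being 0.0508.

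Genes of the ER translocon and of the early secretory pathway, many of which XBP1s is known to induce, had mostly negative differences. Whether XBP1 had a part in these differences was not tested. Of 22 measured genes 5 fell and 1 rose, where 7.92% of all probe sets tested were called lower and 7.56% higher. A negative difference was found for 20 of 23 probe sets, against 57.8% of all tested. The list median was -0.20, against -0.035 for all tested. LMAN1, a cargo receptor between ER and Golgi, fell to 0.747 of the scramble level (log2 difference -0.42 ± 0.079, SE, limma adjusted p = 0.00754) and passed in all 13 other settings run for it. SSR3, a subunit of the translocon-associated protein complex, and SRPRA and SRPRB, the subunits of the signal recognition particle receptor, fell to between 0.796 and 0.813 of the scramble level. Their calls were lost in 3, 5 and 7 of 13 other settings. SEC61A1, the channel subunit, fell by 0.27 on the log2 scale, and SSR4 was the member that rose, by 0.36, both named after their values were seen. Leaving out scramble replicate 1 or 2, or miR-34c replicate 1, gave 2 falls, leaving out miR-34c replicate 2 or 3 gave 1, and there were 3 when all 28868 probe sets were fitted. The rise was lost in 8 of 15 other settings.

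**Figure D4:**
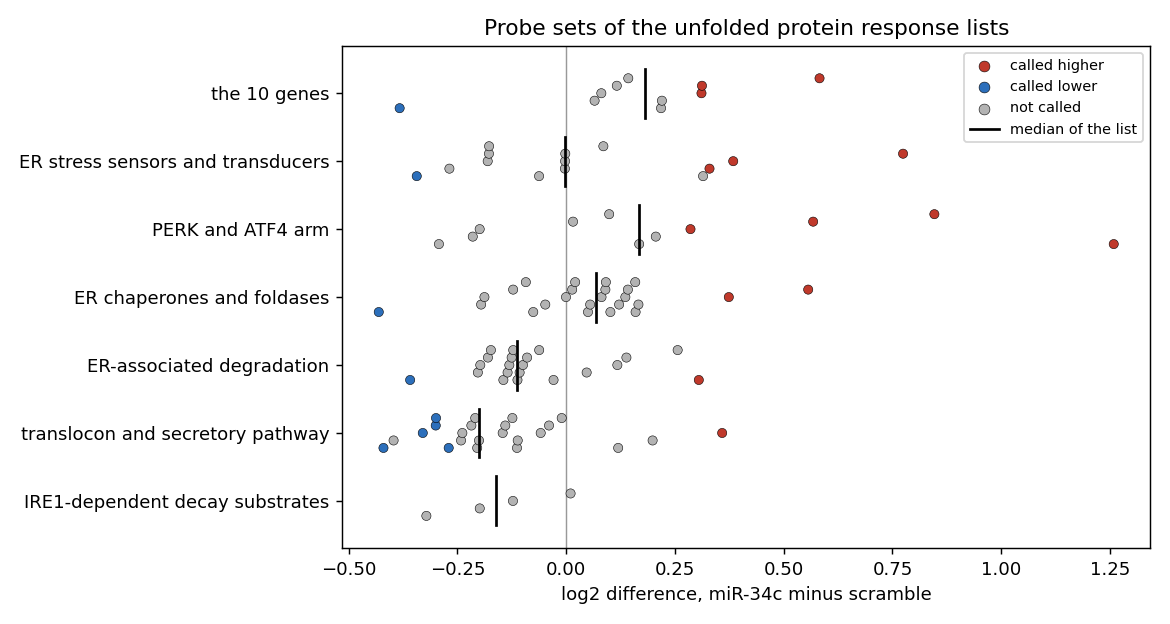
Log2 difference (horizontal axis, miR-34c minus scramble) of every probe set in the pathway lists, 1 row per list, red where called higher, blue where called lower and grey where not called, with a black bar at the list median. The medians run from -0.20 for the translocon and secretory list to 0.18 for the 10 genes.

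In the third branch, that of PERK and ATF4, 4 of 11 genes rose and none fell in limma. With array weights, or without scramble replicate 2, 1 gene fell. Over all probe sets tested 7.56% were called higher and 7.92% lower. At an unadjusted p under 0.05 there were 7 of 11, against 29% of all probe sets tested. These were the 4 that rose and 3 with negative differences, ATF4 and, named after their values were seen, TRIB3 (-0.21) and VLDLR (-0.29). The genes that rose were ATF3, DDIT3, PPP1R15A, which encodes the GADD34 subunit that reverses the translation block, and CHAC1, with log2 differences of 1.26, 0.85, 0.57 and 0.29. The call of CHAC1 was lost in 7 of 13 other settings, 5 of them with 1 array left out. ATF4, the transcription factor of the branch, had a difference of -0.20 and did not pass (adjusted p = 0.141). Of 4 measured mRNAs that IRE1 is known to degrade, none passed in limma. An unadjusted p under 0.05 was found for 2 of them, and for 29% of all probe sets tested. The lowest was SPARC, named after its value was seen, with a difference of -0.32 (adjusted p = 0.0606). The list had 1 fall with each array centred, with a further quantile normalization, with weighted arrays and without miR-34c replicate 1.

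The genes whose 6 values were nearest to those of XBP1, after each probe set was centred on its own mean, were ECE1, ECT2 and SEC24C, with root mean square differences of 0.017, 0.020 and 0.021 over the 6 arrays. Those nearest to CRELD2 were SPAG4, RGCC and INAVA, at 0.022, 0.036 and 0.038. Nearness was measured over 6 arrays in 2 groups, so any gene with a like group difference and a like spread comes near.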

How the data were processed

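Messenger RNA of PC3 cells was profiled on 6 arrays from 100 ng of total RNA each. Per the submitters' processing notes, the authors ran RMA in Affymetrix Expression Console (version not stated). The deposited log2 values are centred for each probe set by a subtraction that the sources used here do not describe. Of 28868 probe sets, GEO's platform annotation gives 1 symbol to 19309, several to 1752 and none to 7807. The log base is taken from RMA, and no genome build is named for the arrays.

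All 19309 probe sets were fitted with limma 3.58.1 in R 4.3.3, with the group as the only term, eBayes without a trend and Benjamini-Hochberg adjustment at 0.05. The trend was left out because centred values carry no brightness. An exact permutation test of 3 against 3 arrays cannot go below p = 0.1, two-sided. In a test on simulated data (19309 probe sets), each value was drawn independently, with the variance that eBayes gave its probe set. Shifts shared by a whole array were not simulated. The fit recovered 5.97% of 67 probe sets changed 1.2-fold, 86.6% of 67 changed 1.5-fold and 100% of 66 changed 2-fold. It called 13 of 19109 unchanged ones. Far fewer probe sets were changed in the simulation than the 2988 called in these data, so its adjusted threshold was stricter. Its recovery shares need not hold here.

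The members and lists were chosen with earlier results of these data known. Of 131 listed symbols 120 were measured by a probe set with 1 symbol, and the rest are not analysed here. Besides the members, the genes named by rule are up to 4 called genes of each list by adjusted p, with HSPA5, DNAJB9, SYVN1, EIF2AK3, ATF4 and DDIT3. The genes nearest to XBP1 and CRELD2 were taken in order of nearness. Any other gene of the lists was named after its value was seen. Alternatives were the replicate number as a block, a trend or robust prior, 2 rescalings, array weights, 3 choices of probe sets and leaving out each array.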

Additional observations from a re-analysis of the deposited data

How the results depend on the processing

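Over the 15 other settings the members called higher numbered 3 or 4 in the 9 that kept all arrays, and 1 to 3 with 1 array left out. The number called lower was 1 in those 9 and 0 to 1 with 1 array left out. Over all probe sets 2988 were called, 1647 to 2722 with 1 array left out and 2699 to 3666 otherwise. Leaving out 1 array leaves fewer samples. SDF2L1 ran from -0.011 to 0.19 with 1 array left out. EIF2AK3 turned sign with arrays centred (0.015), with a further quantile normalization (0.037) and with weighted arrays (0.011), and ran from -0.072 to 0.066 with 1 array left out. It passed in none of them.

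The replicate numbers of the titles were not taken to pair the arrays: same-numbered arrays had deviations correlated at -0.00046, 0.12 and -0.088, and not every array correlated best with its own number. With the replicate number as a block, 2699 probe sets were called, and the members stayed at 3 higher and 1 lower (XBP1 adjusted p = 0.0266). SRPRB (adjusted p = 0.0608) and CHAC1 (adjusted p = 0.058) did not pass with the block, nor in 6 other settings each. The 6 arrays limit the precision, and brightness over background is unknown. Differences near 1.2-fold were mostly missed in simulation, where far fewer probe sets were changed than were called in the data.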
